A study of Mus musculus with 11 samples.

Results

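The data described here are the response to low methionine of a mouse liver cancer cell line, EC4, in the state that the labels call MYC high (genotype MYC on). The comparison set 3 libraries of cells kept for 24 h in DMEM with 10 µM methionine (replicates 1 to 3) against 2 libraries of cells kept for 24 h in DMEM with 200 µM methionine (replicates 2 and 3). These are 5 of the 11 libraries of the series, chosen by their labels. All genes with a mean of at least 10 normalised counts over these 5 libraries were described, which was 12854 of 55416 gene identifiers. The 6 remaining libraries are MYC low cells (genotype MYC off) in the same media, 3 libraries each at 10 and 200 µM, and they serve here only to test whether a response differed between the MYC states. Cells of all groups came from growth medium with 200 µM methionine, and polyadenylated RNA was sequenced. EC4 is 1 line, and the labels do not say whether replicates were separate cultures, so the p-values rest on the spread among the 11 libraries, part or all of which could be technical.

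Methionine is an essential amino acid. It starts proteins, and the enzyme encoded by Mat2a joins it to ATP to form S-adenosylmethionine (SAM), the methyl donor for DNA, RNA, proteins and phospholipids. After methyl transfer the product is cleared by Ahcy to homocysteine, which can be methylated back to methionine with folate-borne carbon, and decarboxylated SAM feeds the polyamines. MYC is a transcription factor known for driving the genes of ribosome assembly, nucleotide synthesis and cell growth. The title of the series places this experiment in a study of MYC-driven liver tumours, their use of methionine and the RNA methyltransferase NOP2.

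Each of the 5 libraries held 10858936 to 11965202 reads on genes, with a read on 17395 to 17916 genes. The leading principal component of the 5 libraries carried 91.4% of their variance. Pearson correlations between replicates of these groups were 0.993 to 0.994, and a chi-square per gene of 1.82 to 2.68 showed that no pair was 1 library deposited again. Of the hepatocyte markers, 14 of 23 were at 0 reads in all 5 libraries and 6 passed the filter, so the defining liver markers were largely absent. Endothelial markers passed in 0 of 7 cases, fibroblast and stellate markers in 1 of 10, macrophage markers in 3 of 8, fetal liver markers in 1 of 5, and biliary and progenitor markers in 7 of 9.

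The Myc transcript itself fell in low methionine. Myc (ENSMUSG00000022346) stood at 2164 and 2014 normalised counts at 200 µM and 291, 366 and 350.3 at 10 µM, so every 10 µM library lay below both 200 µM libraries. The fold was 6.22 (log2 difference −2.64, SE 0.0697, adjusted p = 2.53e-29, limma). MYC low cells showed a log2 difference of −1.76, and the fall was deeper in MYC high cells (difference of responses −0.88, adjusted p = 1.91e-10). In MYC low cells Myc held 1136 ± 31.3 at 200 µM and 336 ± 13.5 at 10 µM (SD, n = 3 each). The table lists mouse genes, and the labels do not say which MYC gene is switched, so this transcript does not check the MYC labels.

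Most of the expressed transcriptome moved. At an adjusted p under 0.05 (limma), 9748 of the 12854 genes were called (75.8%), with 4860 higher (37.8%) and 4888 lower (38.0%) at 10 µM. With a change of at least 2-fold as well, 1646 genes were higher (12.8%) and 1189 lower (9.25%), or 962 and 785 with a minimum mean of 100, which tests fewer genes. At 4-fold or more, 442 were higher and 178 lower, so the upper side had the longer tail among the genes tested. The filter averaged over more libraries at 10 µM than at the higher concentration. Genes seen only at 10 µM therefore passed it more easily, which can lengthen the upper tail. The part of the filter in this tail was not tested. The median log2 difference over all genes tested was −0.0060, and the 5th and 95th percentiles were −1.28 and 1.72. A share of called genes in any list below has to be read against these shares. In bulk RNA, fewer cells of a kind and less RNA per cell cannot be told apart, and values scaled between libraries do not show a change in RNA per cell.

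Over the genes tested, the response was wider in MYC high than in MYC low cells. These genes were filtered on the MYC high libraries alone, which can widen the response there. A gene seen in a single MYC high group could pass, and a gene seen only in MYC low cells could not. The same genes in MYC low cells had log2 differences with an SD of 0.524, against 0.970 in MYC high cells, and their 5th and 95th percentiles were −0.72 and 0.82. In MYC low cells 3759 of these genes were higher (29.2%) and 3873 lower (30.1%) at 10 µM. The test of the difference of the responses passed for 3994 genes with the more positive response in MYC high cells (31.1%) and for 3790 with the more negative one (29.5%). Of the 1646 genes at least 2-fold higher in MYC high cells, 1138 also rose in MYC low cells, 35 fell there and 473 did not pass there. Of the 1189 at least 2-fold lower, 812 also fell in MYC low cells, 42 rose there and 335 did not pass. Calls went in opposite directions in the 2 states for 870 genes, of which 10 changed at least 2-fold in both.

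**Figure D1:**
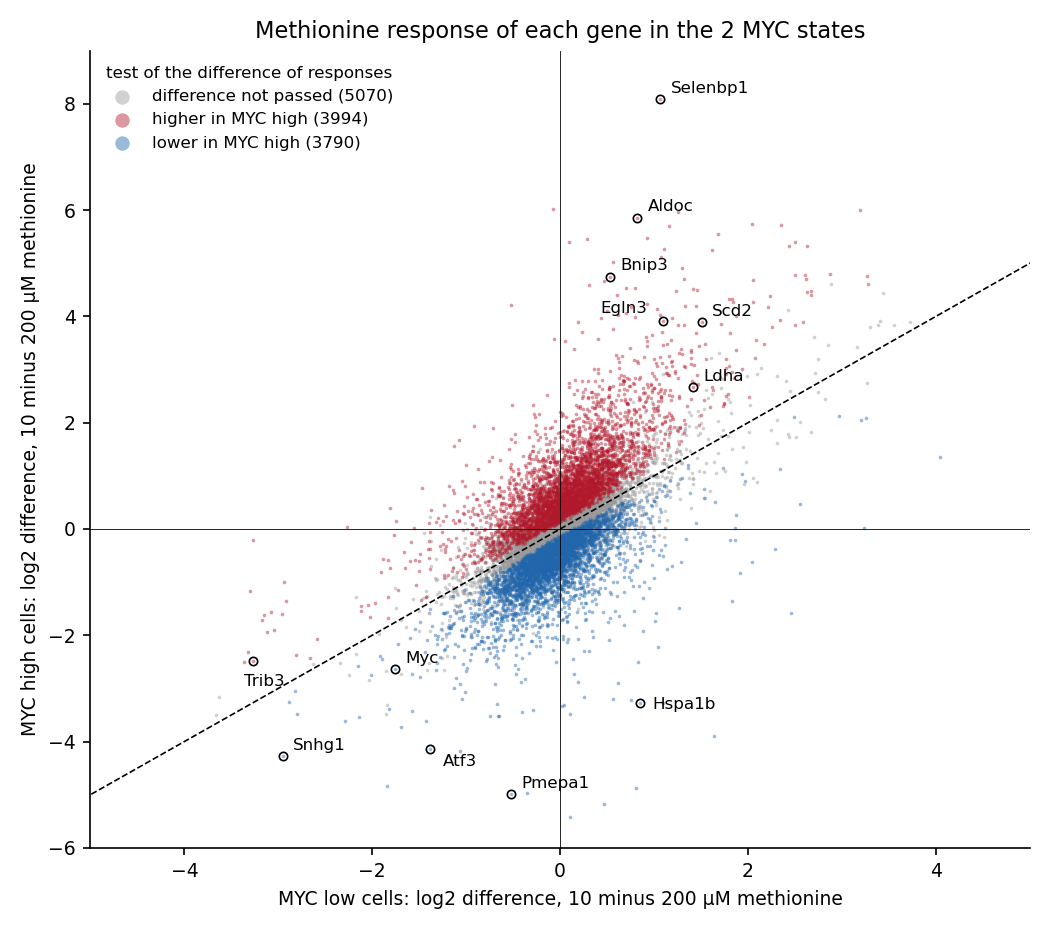
Each point is 1 of the 12854 genes tested, with the log2 difference between 10 and 200 µM methionine in MYC low cells (horizontal axis) and in MYC high cells (vertical axis), coloured by the test of the difference of the responses. The dashed line marks equal responses. Genes were filtered on the MYC high libraries alone, which can widen the vertical spread. The cloud is stretched along the vertical axis (SD of log2 differences 0.970 in MYC high against 0.524 in MYC low cells), with Selenbp1, Aldoc and Bnip3 far above the line and Pmepa1, Hspa1b and Atf3 below it.

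Among genes with a mean of at least 100 normalised counts over the 5 libraries, the largest rise belonged to Selenbp1, which encodes a selenium-binding protein with methanethiol oxidase activity. It stood at 4.57 and 3.18 normalised counts at 200 µM and 1270.3, 1399.5 and 1293 at 10 µM, a 341-fold rise from few reads (log2 difference 8.10, SE 0.309), while MYC low cells held 5.0 ± 3.13 at 200 µM and 10.3 ± 0.911 at 10 µM (SD, n = 3 each). The difference of the responses was 7.03 (SE 0.415, adjusted p = 2.20e-17). Its paralog Selenbp2 had 2 reads at 200 µM and 226 at 10 µM, a ratio of 69.5 (95% counting interval 19 to 577). The pair are nearly identical in sequence, so the split of reads between them is uncertain. Cyp2s1, a cytochrome P450, rose 65.9-fold with 13.7 and 19.1 at 200 µM and 1025, 1139 and 1077 at 10 µM. Map2k6, a kinase that activates p38, rose 49.3-fold. Ddc, the aromatic amino acid decarboxylase, rose 36-fold from 3.43 and 15.9 at 200 µM, so its fold rests on few reads that differed between libraries. The complement gene C3 stood at 73.1 and 76.4 at 200 µM and 2306, 2226 and 2339 at 10 µM, a 30.6-fold rise. Efhd1, a mitochondrial calcium-binding protein, rose 39.8-fold, and its antisense partner Efhd1os rose 65-fold from few reads (4.57 and 2.12 at 200 µM). Without a stated strand setting the reads of the pair cannot be told apart. Lrp2bp (43-fold) and the antisense RNA Gm45507 (32.6-fold) completed these 12 largest rises together with Aldoc, Ankrd37 and Bnip3, which are described below. Groups that do not overlap were a condition for choosing these genes. The test of the difference of responses passed for each of the 12, against 31.1% of all genes tested with the more positive response in MYC high cells. Choosing the largest responses of MYC high cells favours that outcome. All but Gm45507 and Bnip3 had means under 100 at 200 µM, so they reached the minimum mean only through their 10 µM libraries.

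Among genes with the same minimum mean, the largest fall belonged to Snhg1, a host transcript of small nucleolar RNAs, which stood at 9592 and 9477 normalised counts at 200 µM and 532, 472 and 476 at 10 µM. This was a 19.3-fold fall (log2 difference −4.27, SE 0.0571), deeper than in MYC low cells at −2.95 (difference of responses −1.32, adjusted p = 1.40e-17). Snhg12, another such host, fell 9.53-fold. Atf3, a stress-induced transcription factor, stood at 3121 and 3038 at 200 µM and 182, 198 and 145 at 10 µM and fell 17.6-fold. Ptgs2, the inducible cyclooxygenase, fell 13.3-fold, Gpat3, an acyltransferase of triglyceride synthesis, 12.3-fold, and Angptl8, a secreted regulator of lipoprotein lipase, 11.7-fold. Hrk, a death-promoting member of the BCL2 family, stood at 577 and 532 at 200 µM and 56, 37.5 and 53.7 at 10 µM and fell 11.3-fold, and its log2 difference of −3.49 did not pass the test against the −3.66 of MYC low cells (adjusted p = 0.678). Chac1, which breaks down glutathione, fell 11.1-fold and Id3, a helix-loop-helix inhibitor, 9.79-fold. The heat shock gene Hspa1b (9.71-fold), Prx (11.3-fold) and the myelin gene Pmp22 (9.33-fold) completed these 12 largest falls, chosen under the same condition. Gpat3, Angptl8, Hrk, Prx, Hspa1b and Pmp22 had means under 100 at 10 µM. They therefore reached the minimum mean only through their 200 µM libraries.

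**Figure D2:**
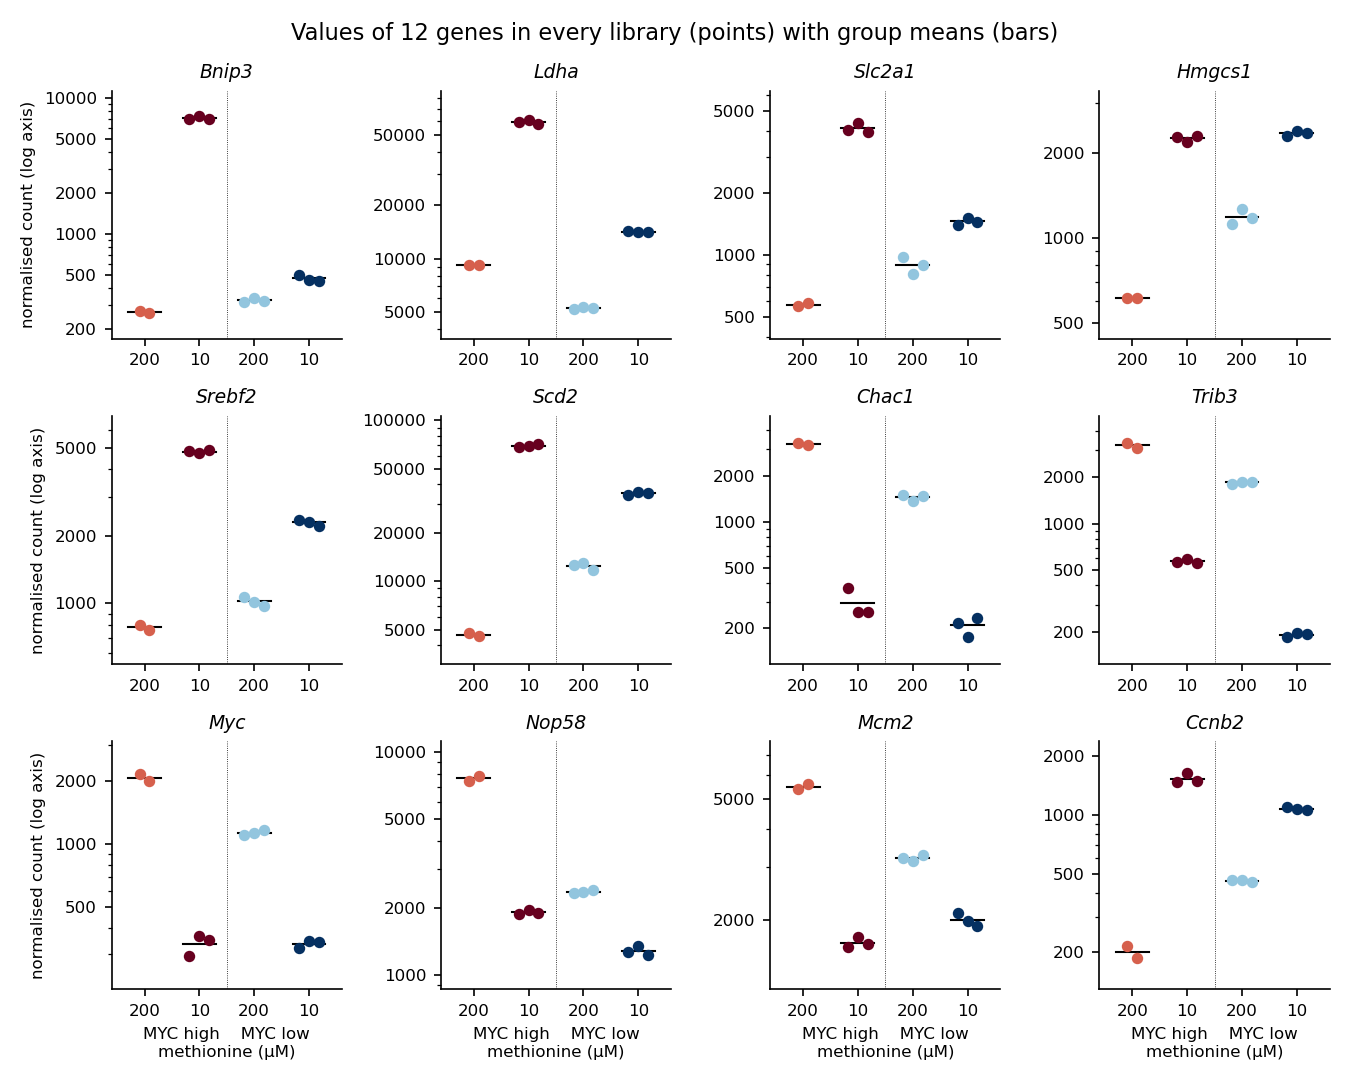
Normalised counts of 12 genes in every library of the series on log axes, grouped by MYC state and methionine (µM), with each point 1 library and each bar a group mean. In MYC high cells the 2 libraries at 200 µM and the 3 at 10 µM do not overlap for any of these genes. The same held for 10490 of the 12854 genes tested, so the lack of overlap does not set these genes apart. Bnip3, Ldha, Slc2a1, Hmgcs1, Srebf2, Scd2 and Ccnb2 are higher at 10 µM, and Chac1, Trib3, Myc, Nop58 and Mcm2 are lower.

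Glucose uptake and glycolysis rose almost as a block. Of 28 genes listed, 24 passed the filter, and 21 of these rose and 2 fell, with a median log2 difference of 1.68, against 37.8% and 38.0% of all genes tested and a median near 0. The glucose carrier Slc2a1 stood at 564 and 581 normalised counts at 200 µM and 4031, 4369 and 3951 at 10 µM, a 7.19-fold rise (SE of the log2 difference 0.0557). Both hexokinases rose, Hk1 2.4-fold and Hk2 2.6-fold, and the phosphofructokinase genes Pfkl, Pfkp and Pfkm rose 4.71-, 5.15- and 5.6-fold. Aldoc, an aldolase, had only 2.29 and 5.3 at 200 µM and 264, 258 and 267 at 10 µM, a 69.3-fold rise that rests on few reads at 200 µM. Aldoc reached the filter only through the 10 µM libraries, so it could only count among the rises. Aldoa, which makes the main aldolase, rose 4.17-fold from 9739 to 40601.

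The lower steps followed. Pgk1, which makes the first ATP of the pathway, stood at 12909.5 and 13574 at 200 µM and 47949.6, 50356 and 48067 at 10 µM, 3.68-fold higher at 10 µM. Gapdh rose 3.54-fold, Tpi1 3.19-fold, Pgam1 3.22-fold, Eno1 2.42-fold and Pkm 1.85-fold. Ldha, which turns pyruvate into lactate, rose 6.39-fold with 9157 and 9240.4 at 200 µM and 58785, 60321 and 57173 at 10 µM. Pdk1, the kinase that holds pyruvate back from the mitochondrion, rose 6.86-fold. The members that fell were Pfkfb3, which makes an activator of phosphofructokinase (log2 difference −0.25), and the lactate exporter Slc16a3 (−0.83). Both calls were lost when single libraries were left out (Slc16a3 also by DESeq2 and without a filter), Pfkfb3 without replicate 3 at 200 µM or replicate 1 at 10 µM, and Slc16a3 without replicate 2 at 200 µM or replicate 3 at 10 µM. Gapdh, Pgk1, Ldha and other glycolysis genes have processed pseudogenes with which reads can be shared.

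The response of glycolysis genes was larger in MYC high cells. The difference of the responses passed for 19 of 24 members with the more positive value in MYC high cells and for 0 with the more negative one, at a background of 31.1% and 29.5%. The list median in MYC low cells was 0.46. Hk2 moved in opposite directions, with a log2 difference of 1.38 in MYC high cells and −0.33 in the MYC low state (difference 1.71, adjusted p = 1.20e-23).

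Many glycolysis genes are textbook targets of the hypoxia-inducible factors (HIF), which bind sequences with the core ACGTG when prolyl hydroxylases are inactive. Of 37 listed HIF factors and hypoxia targets, 28 passed the filter, and 21 rose and 5 fell (median log2 difference 1.05, and 0.070 in MYC low cells). Bnip3, a mitophagy receptor, stood at 273 and 261 normalised counts at 200 µM and 7092, 7423 and 7075 at 10 µM, a 27-fold rise (SE of the log2 difference 0.0567, adjusted p = 1.82e-40). In MYC low cells it held 326 ± 10.4 at 200 µM and 471 ± 29.2 at 10 µM (SD, n = 3 each), and the difference of the responses was 4.22 (adjusted p = 3.01e-33). Egln3, a prolyl hydroxylase that HIF itself induces, stood at 583 and 544 at 200 µM and 8350.4, 8692 and 8395 at 10 µM, 15-fold higher. Ankrd37 rose 36.7-fold, the collagen prolyl hydroxylase gene P4ha2 18.6-fold, Fam162a 9.07-fold, the carbonic anhydrase gene Car12 5.93-fold and the adenylate kinase gene Ak4 4.84-fold.

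The HIF genes and one leading target did not rise. Hif1a stood at 3259.6 and 3514 at 200 µM and 2254, 2250.2 and 2272 at 10 µM and fell (log2 difference −0.58, SE 0.0394), with 0.044 in MYC low cells (difference of responses −0.63, adjusted p = 5.44e-13). Epas1 did not reach the filter, and Arnt, the HIF partner, did not pass (log2 difference −0.11). Vegfa, the angiogenic growth factor, stood at 2785 and 2731 at 200 µM and 911, 990.4 and 953 at 10 µM and fell 2.9-fold. The other members that fell were Hif1an, an asparaginyl hydroxylase that inhibits HIF (−1.23), Vhl, which marks HIF for degradation (−0.43), and Anxa2 (−0.25). The labels name no change in oxygen, and HIF protein was not measured. In 22 of the 28 the response was the more positive one in MYC high cells, and in 4 the more negative one. The background was 31.1% and 29.5%.

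Promoters of this list are shown because members of it moved together. RefSeq promoter windows (build GRCm38.p6, 250 bases before to 50 after a start) were at hand for 9224 of the genes tested, and each was searched on both strands. The core ACGTG stood in a window of 16 of 22 genes of the hypoxia list (72.7%) and of 15 of 24 glycolysis genes (62.5%), against 30.1% of the genes tested and 19.6% of all 32851 windows. The hypoxia list was written from known targets, so its share is not independent of that choice, and lists that mostly fell also lay above the genes tested, with 25 of 59 pre-ribosome genes (42.4%) and 13 of 36 ATF4 list genes (36.1%). It is part of the E-box CACGTG, found in 7.15% of windows, so a match to the longer word is also a match to the shorter one on both strands. Below are the 250 bases before the start, 5′ to 3′ on the gene's strand, with ACGTG on either strand in capitals, for Bnip3 (chr7:138909507-138909756, minus strand) and for Hif1a (chr12:73907617-73907866, plus strand), which has the core and fell. A match is a description of the letters and not a site.
Bnip3: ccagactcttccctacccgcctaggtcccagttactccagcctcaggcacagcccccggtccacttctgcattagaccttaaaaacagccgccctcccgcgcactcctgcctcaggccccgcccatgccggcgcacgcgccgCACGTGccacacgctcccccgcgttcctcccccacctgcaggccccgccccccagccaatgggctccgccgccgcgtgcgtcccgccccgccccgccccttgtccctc
Hif1a: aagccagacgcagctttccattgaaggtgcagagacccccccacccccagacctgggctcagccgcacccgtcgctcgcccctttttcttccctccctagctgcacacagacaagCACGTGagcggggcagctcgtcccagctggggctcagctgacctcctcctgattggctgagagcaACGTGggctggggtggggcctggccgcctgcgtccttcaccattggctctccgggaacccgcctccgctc

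In Bnip3 the 2 matches overlap in 1 CACGTG word that begins 108 bases before the start (position −108), and in Hif1a 3 matches lie between positions −135 and −70. Glycogen genes moved with this group. Of 15 listed, 10 passed the filter, and 7 rose and 2 fell (median log2 difference 0.92), with Gbe1, the branching enzyme, 6.48-fold higher, Pgm1 4.99-fold and the glycogen synthase gene Gys1 3.69-fold. All 10 had the more positive response in MYC high cells by the test of the difference, against 31.1% of all genes tested. The member that did not pass in MYC high cells, named after its value was seen, was Stbd1, a glycogen-binding protein (log2 difference 0.042), and it fell in MYC low cells (−2.27).

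**Figure D3:**
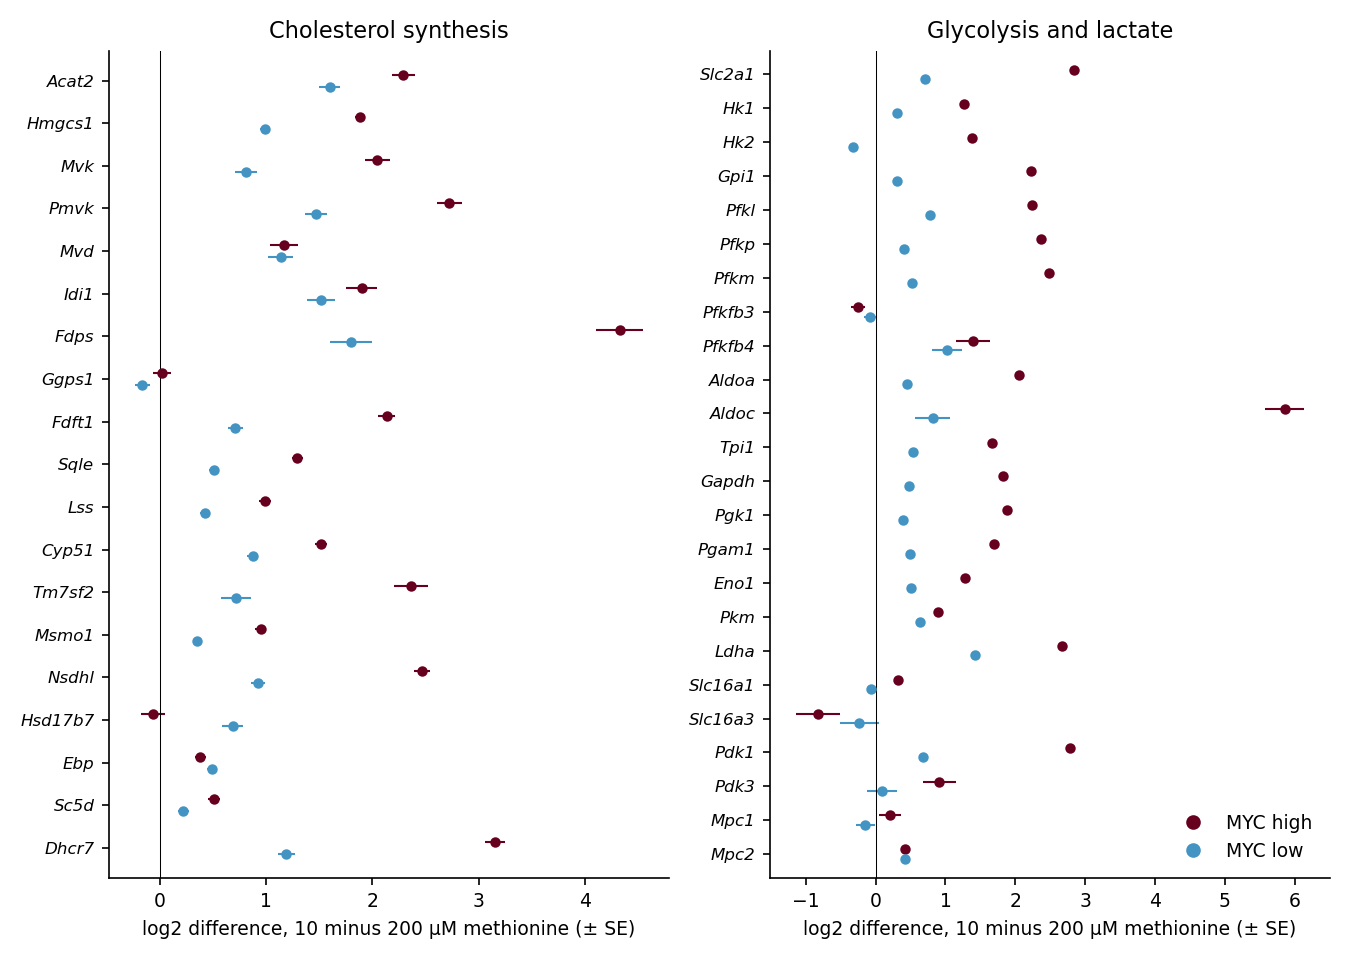
Log2 differences between 10 and 200 µM methionine (points, with bars for limma's SE) for the cholesterol synthesis genes (left) and the glycolysis genes (right) that passed the filter, with 2 cholesterol genes not drawn, in pathway order from top to bottom, in dark red for MYC high and blue for MYC low cells. In MYC high cells 19 of 21 cholesterol genes and 21 of 24 glycolysis genes rose, and most dark points lie to the right of the blue ones, with Fdps and Aldoc farthest out.

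Cholesterol synthesis genes rose along most of the path. All 21 listed genes passed the filter, and 19 rose and 0 fell, with a median log2 difference of 1.88 against 0.81 in MYC low cells. Hmgcs1, which makes HMG-CoA, stood at 614 and 612 normalised counts at 200 µM and 2275, 2189 and 2309.6 at 10 µM, 3.68-fold higher (SE of the log2 difference 0.047). In the mevalonate branch Acat2 rose 4.9-fold, Mvk 4.18-fold, Pmvk 6.64-fold, Mvd 2.27-fold and Idi1 3.77-fold. Fdps, the farnesyl diphosphate synthase, had 4.57 and 6.37 at 200 µM and 129, 142 and 113 at 10 µM, a 23.4-fold rise from few reads in a gene with many pseudogene copies. Fdps reached the filter only through the 10 µM libraries, so it could only count among the rises. Squalene epoxidase, Sqle, rose 2.45-fold, and late steps included Nsdhl (5.57-fold) and Dhcr7 (8.98-fold). The members that did not pass were Ggps1, which makes geranylgeranyl diphosphate (log2 difference 0.021, 95% interval −0.15 to 0.19), and Hsd17b7 (−0.067, −0.29 to 0.16). The difference of the responses was more positive in MYC high cells for 16 members and more negative for 1, which was Hsd17b7. The background was 31.1% and 29.5%.

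These enzymes are known targets of SREBP2, a factor that is released from the endoplasmic reticulum by Scap and retained there by the Insig proteins. Of 20 listed genes of SREBP control and sterol handling, 19 passed the filter, and 13 rose and 3 fell (median log2 difference 0.55, MYC low 0.18). Srebf2 stood at 801 and 763 at 200 µM and 4810.3, 4715 and 4863 at 10 µM, 6.13-fold higher, and Srebf1 rose 4.46-fold with 639.8 and 627 at 200 µM and 2774, 2931 and 2764 at 10 µM. Insig1, itself a target, rose 2.67-fold, and the difference of its responses did not pass (adjusted p = 0.263). The sterol carrier gene Stard4 rose 9.69-fold. Abca1, a cholesterol exporter that oxysterols induce, fell 4.17-fold with 68.6 and 101 at 200 µM and 25.5, 16.2 and 19.2 at 10 µM, against a log2 difference of 0.028 in MYC low cells (difference of responses −2.03, adjusted p = 6.18e-10).

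A core of the sterol element, CACCCCAC, was searched on both strands in the same windows. It stood in 2 of the 16 cholesterol genes with a window (12.5%), Acat2 and Hmgcs1, against 3.57% of genes tested and 2.87% of all windows. The share was no higher than in the glycolysis list (3 of 24, 12.5%) and the hypoxia list (3 of 22, 13.6%), and 0 of 14 genes of SREBP control and sterol handling had the word. The 250 bases before the start of Hmgcs1 (chr13:119690101-119690350, plus strand, GRCm38.p6) are given because its values are shown in full above and it has a match, which is in capitals.
Hmgcs1: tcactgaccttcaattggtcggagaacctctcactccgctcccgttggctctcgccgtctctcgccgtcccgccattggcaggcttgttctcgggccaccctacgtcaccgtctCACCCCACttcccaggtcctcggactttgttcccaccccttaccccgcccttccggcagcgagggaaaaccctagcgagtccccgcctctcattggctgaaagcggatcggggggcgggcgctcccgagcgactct

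Fatty acid synthesis genes rose in 24 and fell in 4 of 30 that passed the filter of 33 listed (median log2 difference 0.71, MYC low 0.37). Scd2, a stearoyl-CoA desaturase, stood at 4752 and 4557 normalised counts at 200 µM and 68472, 68641 and 71266 at 10 µM, a 14.9-fold rise, and Scd1 rose 2.46-fold with 5357 and 5185 at 200 µM and 12635, 12916 and 13281 at 10 µM. The elongase gene Elovl6 rose 5.43-fold, Dgat2 of triglyceride synthesis 4.55-fold, Acacb 7.68-fold from 7.18 to 55.1, and Acly, which makes cytosolic acetyl-CoA, 1.78-fold. Acacb reached the filter only through the 10 µM libraries. Fasn, the fatty acid synthase, went against the list with 9220.2 and 8469 at 200 µM and 7075, 6432 and 6994 at 10 µM (log2 difference −0.37, SE 0.0384), while it rose in MYC low cells (0.79, difference of responses −1.16, adjusted p = 3.45e-21). The other members that fell were Mid1ip1 (−1.05), Lpin2 (−0.76) and Dgat1 (−0.45).

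Phospholipid genes rose in 8 and fell in 2 of 14 that passed the filter of 16 listed, with the ethanolamine gene Pcyt2 2.64-fold higher and the choline kinase gene Chka lower by a log2 difference of −1.01. In fatty acid oxidation 12 rose and 4 fell of 24 that passed the filter of 28 listed (median log2 difference 0.27, MYC low 0.29). The fatty acid carrier Cd36 rose 15-fold from 8.9 to 133 and reached the filter only through the 10 µM libraries. The oxidation enzymes Acadm (5.35-fold), Acaa2 (4.84-fold) and Hadh (3.61-fold) rose, while Cpt1a, the gate of mitochondrial import, fell (log2 difference −0.35) and rose in MYC low cells (0.60). Nuclear genes of oxidative phosphorylation rose in 31 and fell in 9 of 51 (52 listed, median log2 difference 0.25), led by the complex I gene Ndufb5 (2.49-fold) among rises and Uqcrq of complex III (2.23-fold) among falls. Of 8 mitochondrially encoded genes that passed the filter of 13 listed, 2 rose and 5 fell. The number that fell was 3 without replicate 2 at 200 µM, without replicate 2 at 10 µM and by DESeq2.

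Genes of the amino acid response fell in low methionine. ATF4 is a transcription factor whose translation increases when uncharged tRNA activates the kinase GCN2, and its targets supply amino acids and charge tRNA. Of 44 listed genes 42 passed the filter, and 38 fell and 4 rose, with a median log2 difference of −1.26 and −1.05 in MYC low cells. Atf4 itself stood at 5561 and 5714 normalised counts at 200 µM and 2944, 2970.2 and 2697 at 10 µM, a 1.96-fold fall. Among its partners and relatives, Atf5 fell 5.21-fold and Nupr1 9.23-fold. Trib3, a feedback inhibitor, stood at 3329 and 3121 at 200 µM and 565, 590.4 and 561 at 10 µM and fell 5.64-fold, less than in MYC low cells (log2 differences −2.49 and −3.27, difference of responses 0.78, adjusted p = 8.11e-12). Chac1 stood at 3311 and 3203 at 200 µM and 369, 255 and 257 at 10 µM, with replicate 1 the highest of the 10 µM libraries and still far below both at 200 µM. The secreted factor Fgf21 had 29.7 and 31.8 at 200 µM and 2.04, 4.05 and 4.05 at 10 µM, a 9.1-fold fall at low counts. Fgf21 reached the filter only through the 200 µM libraries.

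Enzymes of amino acid supply in this list were divided. Asns, the asparagine synthetase, fell 1.41-fold with 6169.7 and 6382 at 200 µM and 4377, 4601 and 4341 at 10 µM. Psat1, of serine synthesis, stood at 10255 and 10551 at 200 µM and 16893, 16835 and 16351 at 10 µM and rose 1.6-fold, and it fell in MYC low cells (−0.41, difference of responses 1.10, adjusted p = 3.38e-22). The other members that rose were Vldlr, a lipoprotein receptor (1.66-fold), Pck2 (1.21-fold) and Gpt2 (1.19-fold), and for each the log2 difference in MYC low cells was negative, at −0.63, −1.02 and −1.21, with the test of the difference passed.

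The C/EBP-ATF response element, TGATGCAA, was searched on both strands in the same windows. It stood in 10 of 36 ATF4 list genes with a window (27.8%), against 0.726% of genes tested and 0.895% of all windows. The list was written from known targets, so this share is not independent of how the list was written. The window of Chac1, chosen after the matches were seen, is given as the gene of this list with the largest fall after Atf3 (chr2:119350992-119351241, plus strand, 250 bases before the start, GRCm38.p6). The capitals mark the element, here on the opposite strand, beginning at position −193.
Chac1: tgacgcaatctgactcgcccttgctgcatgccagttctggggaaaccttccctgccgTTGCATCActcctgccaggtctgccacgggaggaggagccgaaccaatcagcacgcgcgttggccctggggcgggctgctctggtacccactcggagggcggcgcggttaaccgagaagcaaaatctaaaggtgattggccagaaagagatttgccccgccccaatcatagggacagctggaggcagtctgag

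Amino acid carriers fell in 11 and rose in 3 of 16 that passed the filter of 24 listed (median log2 difference −0.92, MYC low −0.69). Slc3a2, the heavy chain that carries the large neutral transporters to the surface, stood at 17043 and 17141 normalised counts at 200 µM and 4153, 4433 and 4197 at 10 µM, a 4.01-fold fall. Its light chain Slc7a5, which takes up methionine, fell 1.21-fold with 6075 and 5942 at 200 µM and 4970.3, 5101 and 4775 at 10 µM. The glycine carrier Slc6a9 fell 4.21-fold, Slc38a2 3.78-fold and the cystine carrier Slc7a11 3.29-fold. Slc43a2, another large neutral carrier, rose 1.29-fold with 78.8 and 82.7 at 200 µM and 97.8, 121 and 94.2 at 10 µM, and Slc7a7 rose 6.53-fold from 12 to 78.1.

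Serine and folate genes fell in 11 and rose in 6 of 19 that passed the filter of 23 listed. The mitochondrial folate enzyme gene Mthfd2 fell 3.13-fold with 5056 and 5108 at 200 µM and 1581, 1687 and 1598 at 10 µM. Against it rose Mthfd1l (1.97-fold), whose log2 difference in MYC low cells was −0.53 (adjusted p of the difference of responses 7.98e-21). Aminoacyl-tRNA synthetases fell in 21 and rose in 11 of 37. Of 20 cytosolic synthetases 16 fell and 4 rose, while of 17 mitochondrial ones 5 fell and 7 rose. Wars fell 3.56-fold with 4611 and 4561 at 200 µM and 1329, 1300.3 and 1232 at 10 µM, Yars 2.52-fold and Rars 2.2-fold, while Qars rose 2.64-fold with 1131 and 1138 at 200 µM and 2947, 3016 and 3008 at 10 µM.

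The methionine cycle moved in both directions. Of 21 listed genes 13 passed the filter, and 6 rose and 5 fell (median log2 difference −0.010). Mat2a, which makes SAM, stood at 2769.5 and 3034 normalised counts at 200 µM and 1536, 1531 and 1586 at 10 µM, a 1.87-fold fall (SE of the log2 difference 0.0413), against a log2 difference of −0.094 in MYC low cells (difference of responses −0.81, adjusted p = 1.85e-15). Its regulatory partner Mat2b rose 1.69-fold. Mettl16, the methyltransferase that controls the processing of Mat2a RNA, did not pass (log2 difference −0.088). Ahcy stood at 2477 and 2407 at 200 µM and 2708, 2667 and 2556 at 10 µM, a log2 difference of 0.11 (adjusted p = 0.0186) whose call was lost without replicate 3 at 200 µM or replicate 1 at 10 µM. Both genes of homocysteine remethylation fell, Mtr 1.49-fold and Mtrr 3.07-fold. Gamt, which uses SAM to make creatine, rose 23.6-fold from 8.36 to 197. It reached the filter only through the 10 µM libraries, so it could only count among the rises.

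Salvage and polyamine genes fell in 10 and rose in 4 of 17. Mtap, the first enzyme of methionine salvage, did not pass (log2 difference 0.056), while Mri1 and Enoph1 of the same path fell 1.91- and 1.63-fold. In polyamine synthesis Odc1 fell 1.18-fold and Amd1, which decarboxylates SAM, 1.64-fold with 1775 and 1912 at 200 µM and 1157, 1125 and 1099.6 at 10 µM, and Amd1 rose in MYC low cells (0.20, difference of responses −0.91, adjusted p = 7.63e-15). Its near-identical copy Amd2 can share reads with it. In polyamine breakdown Smox fell 4.69-fold, Paox rose 4.97-fold and Sat1 1.89-fold.

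Among enzymes that use SAM on RNA, DNA and protein, more fell than rose. RNA methyltransferase genes fell in 23 and rose in 7 of 41 that passed the filter of 43 listed (median log2 difference −0.32, MYC low −0.14). Nop2, which methylates cytosine in ribosomal RNA, stood at 3051 and 3166 normalised counts at 200 µM and 1817, 1719 and 1685 at 10 µM, a 1.79-fold fall, with a log2 difference of −0.15 in MYC low cells (difference of responses −0.68, adjusted p = 1.23e-12). The tRNA methyltransferase gene Trmt61a fell 4.42-fold with 512 and 517 at 200 µM and 105, 125 and 119 at 10 µM, Mrm3 2.71-fold, Mettl1 2.59-fold and the m6A writer Mettl3 2.36-fold. Members that rose included Nsun4 (2.05-fold) and Trdmt1 (2.02-fold). DNA and protein methyltransferase genes fell in 24 and rose in 6 of 38, with the arginine methyltransferase gene Prmt3 2.27-fold and Suv39h2 2.15-fold lower, and Kmt5c 2.1-fold and Dnmt3a 1.41-fold higher.

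**Figure D4:**
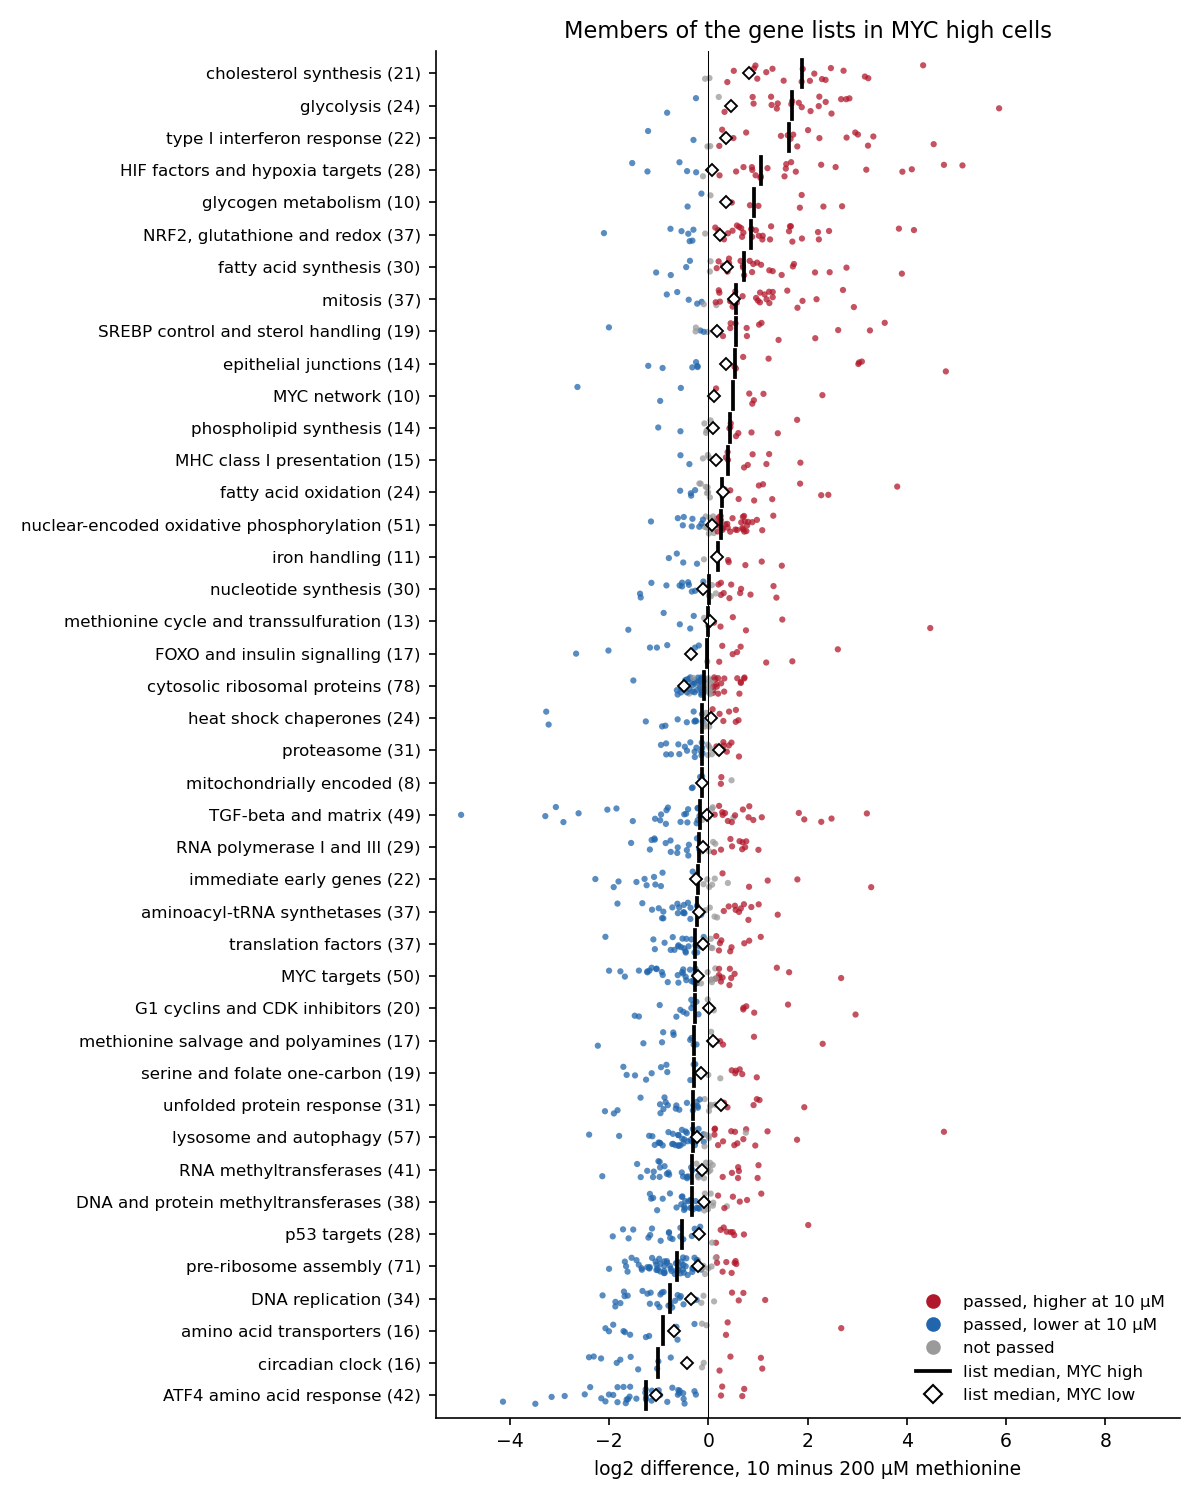
Log2 differences between 10 and 200 µM methionine in MYC high cells for the members of each gene list that passed the filter (number in brackets), 1 point per gene, ordered by the list median (black bar), with the list median in MYC low cells as an open diamond. Lists run from ATF4 targets (38 of 42 lower) at the bottom to glycolysis (21 of 24 higher) and cholesterol synthesis (19 of 21 higher) at the top.

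Most ribosome assembly genes fell. Of 71 listed genes of pre-ribosome assembly, all tested, 56 fell and 8 rose, with a median log2 difference of −0.62 against −0.21 in MYC low cells. Nop58 and Nop56, which form the core of the box C/D particles that guide ribosomal RNA methylation, fell 4.01- and 3.21-fold, with Nop58 at 7461 and 7844 normalised counts at 200 µM and 1881, 1959 and 1888 at 10 µM. Gar1 of the box H/ACA particle fell 3.16-fold, Tsr1 3.1-fold and Tcof1, which couples ribosomal DNA transcription to assembly, 2.93-fold. Ncl, the nucleolar protein nucleolin, stood at 32415 and 34235 at 200 µM and 24124, 24144 and 25153 at 10 µM and fell 1.36-fold. The largest of the 8 rises were small, with Ebna1bp2 at 1.48-fold, Imp3 at 1.46-fold, Bop1 at 1.44-fold, Rpf2 at 1.39-fold and Rrp1 at 1.29-fold. The difference of the responses was more negative in MYC high cells for 52 members and more positive for 7, at a background of 29.5% and 31.1%. The E-box CACGTG, the word that MYC binds, stood in a window of 15 of 59 of these genes (25.4%) against 12.1% of genes tested. Lists that mostly rose also lay above that share, with 3 of 14 genes of SREBP control (21.4%), 3 of 16 of cholesterol synthesis (18.8%), 4 of 22 of the hypoxia list (18.2%) and 4 of 24 of glycolysis (16.7%).

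RNA polymerase I and III genes were divided, with 15 lower and 10 higher of 29. The fall was led by Taf1a (2.96-fold), Twistnb (2.27-fold) and Ubtf (2.13-fold), which act in polymerase I transcription, and the rises by Polr3k (2.01-fold) and Polr3e (1.7-fold) of polymerase III. Cytosolic ribosomal protein genes moved by small amounts in MYC high cells. Of 78 that passed the filter of 79 listed, 38 fell and 18 rose with a median log2 difference of −0.092, and the median in MYC low cells was −0.49. The response was more positive in MYC high than in MYC low cells for 75 of the 78 and more negative for 1. The background was 31.1% and 29.5%. Rpl12 stood apart with 38109 and 36973 at 200 µM and 13122, 13905 and 12475 at 10 µM, a 2.85-fold fall. Ribosomal protein genes have many pseudogene copies, so single values are uncertain.

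Translation factor genes fell in 24 and rose in 9 of 37. Eif1, which guides the choice of the start codon, fell 4.21-fold with 17799.5 and 18059 at 200 µM and 4268, 4420.4 and 4074 at 10 µM, Eif6, which keeps the large subunit free, fell 2.16-fold, and Eef2k, the inhibitory kinase of elongation factor 2, rose 2.08-fold. In the MYC network 6 rose and 3 fell of 10 that passed the filter of 13 listed, against 37.8% and 38.0% of all genes tested. Of the 7 partners and antagonists of Myc, 5 rose and 2 fell. Mxd1 was 4.92-fold higher, with 222 and 187 at 200 µM and 945, 1024 and 1046 at 10 µM. Mxd3 rose 2.17-fold, Mxd4 1.89-fold and Mxi1 1.85-fold, while Mnt fell 1.96-fold and Mga also fell. Mxd1 rose more than in MYC low cells (0.34, difference of responses 1.96, adjusted p = 4.10e-18). Canonical MYC targets fell in 30 and rose in 13 of 50 (median log2 difference −0.27, MYC low −0.21), and several of the risers, such as Ldha and Hk2, are also in the glycolysis list.

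Replication genes and mitotic genes parted. Of 34 replication genes 27 fell and 4 rose (median log2 difference −0.78), and of 37 mitotic genes 30 rose and 5 fell (0.55). Mcm2, a subunit of the replicative helicase, stood at 5382 and 5602 normalised counts at 200 µM and 1637, 1757 and 1669 at 10 µM, 3.25-fold lower. Cdc6, which loads the helicase, fell 4.39-fold with 1298 and 1281 at 200 µM and 273, 296 and 312 at 10 µM, Mcm10 3.67-fold, Gins3 3.69-fold and Mcm4 3.42-fold. Rfc5 of the clamp loader (2.21-fold) and Gmnn, the inhibitor of origin licensing (1.39-fold), rose.

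On the mitotic side Ccnb2, a mitotic cyclin, stood at 214 and 186 at 200 µM and 1474, 1632 and 1478 at 10 µM, a 7.65-fold rise. Cdc25b rose 6.6-fold, the centromere histone gene Cenpa 4.55-fold, Plk1 3.73-fold and Aurkb 3.48-fold, while Ndc80 of the kinetochore fell 1.79-fold. The mitotic median in MYC low cells was close, at 0.52. The difference of the responses was more positive for 18 of 37 members and more negative for 10, at a background of 31.1% and 29.5%. For replication genes it was more negative for 21 of 34 and more positive for 5 (median in MYC low cells −0.35). Cell cycle phase was not measured.

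G1 regulators fell in 12 and rose in 6 of 20 that passed the filter of 21 listed. Ccnd1 stood at 2808 and 2643 at 200 µM and 2159, 2196 and 2082 at 10 µM and fell (log2 difference −0.34), Ccne2 fell 2.8-fold and E2f2 2.64-fold. The inhibitors were divided, with Cdkn1a (−0.51) and Cdkn1b (−0.34) lower, Cdkn2b not passed (0.11), and Cdkn2d 7.94-fold, Cdkn2a 1.9-fold and Cdkn2c 1.64-fold higher. Ccnd1 and Cdkn1a rose in MYC low cells (0.29 and 0.19), and the differences of their responses passed (adjusted p = 6.25e-14 and 8.27e-15). Targets of p53 fell in 18 and rose in 9 of 28 (median log2 difference −0.54), with Plk3 3.81-fold, Trp53inp1 3.3-fold and Mdm2, the p53 ubiquitin ligase, 2.86-fold lower, and Fas, a death receptor, 4.1-fold higher. Nucleotide synthesis genes were balanced, with 11 higher and 12 lower of 30, and Umps and Uck1 of the pyrimidine path fell 2.58- and 2.6-fold while the purine genes Adssl1 and Prps2 rose 2.6- and 2.49-fold.

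Chaperone and protein turnover genes responded differently in the MYC states. Of 31 unfolded protein response genes that passed the filter of 32 listed, 20 fell and 6 rose in MYC high cells (median log2 difference −0.30), and the median in MYC low cells was 0.25. The difference of the responses was more negative in MYC high cells for 21 and more positive for 3, at a background of 29.5% and 31.1%. Hspa5, the main chaperone of the endoplasmic reticulum, stood at 22294 and 22703 normalised counts at 200 µM and 8711, 8846 and 8597 at 10 µM, a 2.58-fold fall, with a log2 difference of 0.067 in MYC low cells (difference of responses −1.43, adjusted p = 4.52e-27). Herpud1 fell 4.26-fold and Dnajb9 3.78-fold, while Edem2 rose 3.83-fold and P4hb, a disulfide isomerase, 1.88-fold.

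Heat shock genes fell in 13 and rose in 7 of 24 that passed the filter of 26 listed. Hspa1b stood at 459 and 486 at 200 µM and 38.7, 55.7 and 51.6 at 10 µM, and MYC low cells at 61.2 ± 1.64 at 200 µM and 111 ± 4.12 at 10 µM (SD, n = 3 each), so the responses had opposite signs (difference −4.12, adjusted p = 1.03e-19). Its near-identical neighbour Hspa1a fell 9.48-fold, and reads can be shared between the pair. Hspa9, the mitochondrial chaperone, fell 2.4-fold and Lonp1, a mitochondrial protease, rose 1.52-fold. Proteasome genes fell in 17 and rose in 9 of 31 (median log2 difference −0.13, MYC low 0.22). Their difference of responses was more negative in MYC high cells for 22 and more positive for 0, at a background of 29.5% and 31.1%. Of 14 core genes 4 fell and 7 rose, while of 17 regulatory genes 13 fell and 2 rose. Psmd8 (1.94-fold), Psmc4 (1.81-fold) and Psmd4 (1.8-fold) led the falls.

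Lysosome and autophagy genes fell in 37 and rose in 15 of 57 that passed the filter of 61 listed. Sqstm1, the autophagy receptor p62, stood at 54187 and 55074 at 200 µM and 10119.8, 10834 and 10031 at 10 µM, a 5.29-fold fall. Atg14 fell 3.51-fold, and the kinase gene Ulk2 rose 3.46-fold with 267 and 272 at 200 µM and 913, 935 and 949.7 at 10 µM. Bnip3 and Bnip3l (2.28-fold), which recruit mitochondria for autophagy, also rose. The transcripts do not measure autophagic flux.

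Most redox genes rose. Of 47 listed NRF2, glutathione and redox genes 37 passed the filter, and 29 rose and 7 fell (median log2 difference 0.86, MYC low 0.23). Ephx1, an epoxide hydrolase, stood at 225 and 228 normalised counts at 200 µM and 1214, 1246 and 1220.1 at 10 µM, a 5.41-fold rise. Gsta2 rose 4.71-fold and the carbonyl reductase gene Cbr1 4.64-fold, while Cbr1 did not pass in MYC low cells (difference of responses 2.21, adjusted p = 2.53e-27). Gsta3 and Aldh3a1 each had 1 read in the 200 µM libraries against 74 and 60 reads at 10 µM, ratios of 45.5 (95% counting interval 7.92 to 1821) and 36.9 (6.37 to 1481). Both reached the filter only through the 10 µM libraries, so their place among the 29 was fixed by the filter. Osgin1, which NRF2 also induces, went against the list with 1922 and 1937 at 200 µM and 472, 421 and 452 at 10 µM, a 4.31-fold fall, and Nfe2l2, the gene of NRF2 itself, fell (log2 difference −0.41), as did Gpx4, the lipid peroxide reductase (−0.76), and Txnrd1 (−0.38). Glutathione S-transferase genes of the alpha class are similar in sequence and can share reads. In iron handling 6 rose and 4 fell of 11 that passed the filter of 14 listed, with the exporter Slc40a1 2.79-fold and the ferritin gene Fth1 2.11-fold higher and Slc39a14 lower (−0.80).

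Interferon response genes rose from low counts, and members that reached the filter only through their 10 µM libraries had to differ. Of 39 listed genes only 22 passed the filter, and 17 rose and 2 fell (median log2 difference 1.63, MYC low 0.36). With a minimum mean of 100, 9 rose. Samd9l, an antiviral factor, stood at 42.3 and 53 at 200 µM and 389, 357 and 379.7 at 10 µM, a 7.88-fold rise. The tetherin gene Bst2, named after its value was seen, stood at 401 and 426 at 200 µM and 1609.6, 1749.9 and 1643 at 10 µM, 4.03-fold higher. Lgals3bp rose 6.87-fold. Oas3 had 1 read at 200 µM and 98 at 10 µM, a ratio of 60.2 (95% counting interval 10.6 to 2404), and Oasl1 had 3 and 55, a ratio of 11.3 (3.66 to 56.3). Adar, the RNA-editing enzyme that limits this response, fell 2.33-fold with 949 and 985 at 200 µM and 429.9, 404 and 413 at 10 µM, and Irf3 fell (log2 difference −0.30). MHC class I genes rose in 10 and fell in 2 of 15 that passed the filter of 18 listed, led by the peptide transporter gene Tap2 (3.67-fold). Beside these results, the sum of the 8 macrophage markers was 645 to 674 at 200 µM and 1061 to 1135 at 10 µM, with 4 of the 8 at 0 in all 5 libraries. The members that passed the filter did not move together. Cd68 rose from 28.2 to 454 and Csf1r from 246 to 435, while Cd14 fell from 385 to 205. The part of the macrophage markers in the result was not tested.

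TGF-beta target genes held some of the deepest falls in a list that was divided as a whole, with 24 lower and 18 higher of 49 that passed the filter of 63 listed. Of 18 TGF-beta pathway genes 13 fell and 3 rose, and of 6 genes listed as YAP-type targets 5 fell and 1 rose. Integrins and laminins rose in 8 and fell in 4 of 14, and collagens and glycoproteins rose in 6 and fell in 2 of 11. Pmepa1, a feedback inhibitor of the pathway, stood at 210.2 and 187 normalised counts at 200 µM and 7.13, 5.06 and 4.05 at 10 µM, while MYC low cells held 424 ± 39 at 200 µM and 294 ± 24 at 10 µM (SD, n = 3 each, difference of responses −4.46, SE 0.214, adjusted p = 3.75e-20). Smad7, another feedback inhibitor, fell 8.48-fold with 1018 and 968 at 200 µM and 116, 111 and 124 at 10 µM, Skil 6.15-fold and Ltbp1, which stores latent TGF-beta, 7.69-fold. Of the integrin and collagen genes, Itgb3 (9.36-fold) and Col5a1 (4.85-fold) rose. Col1a1 had 4.57 and 1.06 at 200 µM and 12.2, 19.2 and 24.3 at 10 µM. Col1a1 reached the filter only through the 10 µM libraries and Pmepa1 only through those at 200 µM.

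Epithelial junction genes rose in 8 and fell in 6 of 14 that passed the filter of 24 listed. Among the 8, Cldn2 (2 reads at 200 µM and 169 at 10 µM) and Krt7 (3 and 47) reached the filter only through the 10 µM libraries and had to count as rises. With a minimum mean of 100, 5 rose. Krt19, a keratin of bile duct cells, stood at 1485 and 1468 at 200 µM and 11510.4, 12684 and 11869.7 at 10 µM, 8.14-fold higher at 10 µM, Krt8 rose 2.32-fold, and Cldn12 fell 2.32-fold. The sum of the 9 biliary and progenitor markers was 9828 to 9864 at 200 µM and 21081 to 22292 at 10 µM, of which most was Krt19 and Spp1, while Sox9 and Sox4 of the same list had lower means at 10 µM (from 150.2 to 43.0 and from 2553 to 1156). The part of these markers in the result was not tested.

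Immediate early genes fell in 11 and rose in 5 of 22 that passed the filter of 24 listed. Ier5 fell 4.85-fold, Junb 3.76-fold and Klf6 3.51-fold, while Egr1 stood at 161 and 126 at 200 µM and 1628, 1231 and 1354 at 10 µM, a 9.77-fold rise, and Dusp6, a phosphatase of ERK, rose 3.48-fold. Both had a difference of responses that passed, with log2 differences in MYC low cells of 0.59 and −0.24. Clock genes fell in 10 and rose in 4 of 16 that passed the filter of 19 listed (median log2 difference −1.02, MYC low −0.44). Nr1d1 stood at 1323 and 1299.6 at 200 µM and 257, 227 and 257 at 10 µM, a 5.31-fold fall, and Ciart, Cry1 and Per2 fell 4.98-, 4.49- and 3.71-fold, while Dbp rose 2.12-fold. FOXO and insulin genes were even, with 8 higher and 8 lower of 17, and held Arrdc3 (6.18-fold higher), Ccng2 (3.24-fold higher), Bcl6 (6.34-fold lower) and the insulin receptor substrate gene Irs2 (4.06-fold lower).

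The largest contrasts between the MYC states lay both inside and outside these lists. Sprr1a, a cornified envelope protein, stood at 206 and 237 at 200 µM and 85.6, 91.1 and 80.0 at 10 µM in MYC high cells and at 86.4 ± 9.34 at 200 µM and 309 ± 4.14 at 10 µM in MYC low cells (SD, n = 3 each). It fell in the first and rose in the second (log2 differences −1.36 and 1.83, difference −3.19, adjusted p = 5.14e-19). Clstn2, a synaptic membrane protein, had 97.1 and 75.3 at 200 µM and 8.15, 6.08 and 13.2 at 10 µM, a 9.44-fold fall, and a log2 difference of 0.26 in MYC low cells (difference −3.41, adjusted p = 6.14e-14). Angptl8 (−2.86) and Atf3 (−2.75) followed among the most negative differences of responses of genes with a mean of at least 100 over all 11 libraries, and Selenbp1 (7.03), Cyp2s1 (4.71), Map2k6 (4.56), Gm45507 (4.47), Bnip3 (4.22) and Ankrd37 (4.05) had the most positive ones by that measure. These 6 genes rose in MYC low cells as well, by log2 differences of 0.53 to 1.26.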

How the data were processed

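The authors deposited 1 table of normalised counts (a signal scaled between libraries) for 55416 Ensembl identifiers in 11 libraries. FastQC, fastp, STAR, SAMtools, HTSeq and DESeq2 with build GRCm39 are named per the submitters' processing notes, without versions; the sources used here give neither their roles nor the strand setting. Dividing by the step of 1 read returned whole reads for 100% of values (tolerance 0.001). Of the identifiers tested, 12806 of 12854 matched a symbol in GENCODE M21.

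Genes with a mean of at least 10 over the 5 MYC high libraries were tested with limma 3.58.1 (R 4.3.3) on log2(value + 1), with 1 mean per group over all 11 libraries, a mean trend and Benjamini-Hochberg adjustment, threshold 0.05. Fold changes are ratios of mean normalised counts, and log2 differences, on the log2(value + 1) scale, understate changes of low genes. The difference of responses is the interaction contrast, MYC high minus MYC low. The script was tested on simulated data. edgeR 4.0.16 on recovered reads called 4908 genes higher and 4832 lower. A count of 3 reads corresponds to 3.04 to 3.43 normalised counts. Alternatives were other pseudocounts, filters, scalings and tools, a replicate block, a fit of 5 libraries and leaving out each library.

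The members and gene lists were chosen with earlier results of these data known. Genes named were 30 fixed by name, the 12 largest rises and falls with a mean of at least 100 and no overlap, in each list up to 6 of the largest called changes and up to 5 called against its majority, any member of lists given in pathway order, and the 6 largest differences of responses each way. Promoters came from RefSeq tables of GRCm38.p6, and no coordinates of other genes were used because the builds differ. Some list members are counted but not reported here by name.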

Additional observations from a re-analysis of the deposited data

Results flagged for a closer look

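The test of the difference of the responses passed for 3994 genes with the more positive response in MYC high cells and for 3790 with the more negative one. These are 31.1% and 29.5% of the 12854 genes tested. The genes with the most positive differences of log2 responses (mean of at least 100 over all 11 libraries) were Selenbp1 (7.03), Cyp2s1 (4.71), Map2k6 (4.56), Gm45507 (4.47), Bnip3 (4.22) and Ankrd37 (4.05). Those with the most negative were Pmepa1 (−4.46), Hspa1b (−4.12), Clstn2 (−3.41), Sprr1a (−3.19), Angptl8 (−2.86) and Atf3 (−2.75).

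Among the genes fixed by name, 3 fell in MYC high and rose in MYC low cells. The differences of their log2 responses were −1.16 for Fasn, −0.64 for Ccnd1 and −0.70 for Cdkn1a.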

How the results depend on the processing

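Of 710 counts recomputed under 20 alternatives, 702 stayed within 1.5 times the reported count. With a minimum mean of 100, which tests fewer genes, 962 genes were at least 2-fold higher and 785 lower, and 5 epithelial junction and 9 interferon members rose. Mitochondrially encoded members that fell numbered 3 without a filter and by DESeq2. Leaving out single libraries gave 4552 to 4786 genes higher and 4500 to 4798 lower in MYC high cells, and 3 mitochondrially encoded members lower without replicate 2 of either group. DESeq2 called 4618 higher and 4623 lower. Of 6724 values of named genes under alternatives, 43 lost the call (17 genes), 3 gained it and 0 reversed.

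Replicate numbers did not pair the samples (correlations of same-numbered deviations −0.0469 to 0.032), and the fit with a replicate block called 4806 higher and 4833 lower. With 2 libraries at 200 µM, leaving 1 out assumes that the other varies like the remaining groups. A gene with 3 or fewer reads in a group has no firm fold.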

Other observations

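Host transcripts of small nucleolar RNAs, chosen after their values were seen, moved in both directions. Gas5 fell 5.39-fold with 6829 and 6861 normalised counts at 200 µM and 1241, 1286 and 1284 at 10 µM, Snhg15 6.06-fold, Snhg5 3.0-fold, Snhg17 2.66-fold and Snhg8 2.46-fold. Snhg3 (2.43-fold), Snhg20 (1.68-fold) and Snhg14 (1.43-fold) rose, and Snhg6 did not pass (log2 difference −0.21). The fall of Snhg15 was deeper in MYC high cells (difference of responses −1.94, adjusted p = 3.65e-15, limma), while for Snhg5 and Snhg8 the difference did not pass (adjusted p = 0.253 and 0.295).

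The metallothionein gene Mt1, a metal-binding protein also chosen after its value was seen, stood at 406 and 388 at 200 µM and 3338, 3830.0 and 3382 at 10 µM, an 8.86-fold rise. Mt2 had 2 reads at 200 µM and 132 at 10 µM, a ratio of 40.6 (95% counting interval 11 to 339). Among gene families read by the shared start of their names, many were even, such as Map (16 higher and 16 lower of 36) and Cdk (9 and 9 of 25). Some, picked after their values were seen, were not. Of 307 Zfp (zinc finger) genes 146 fell (47.6%) and 55 rose (17.9%), against 38.0% and 37.8% of all genes tested. Of 32 Ddx (RNA helicase) genes 21 fell (65.6%) and 6 rose. Of 48 Mrpl genes, which encode mitochondrial ribosomal proteins, 25 rose and 8 fell.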
